A study of Mus musculus with 2 samples.

Results

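The collagen genes were taken from the ventral midbrain RNAseq by their symbols: Col, a number, the letter a and a second number. The rule found 44 genes among the 31252 gene rows, of which 11 encode fibrillar chains, 8 chains of basement membranes and 25 chains of other types. The RNA came from 2-month-old mice of an incipient congenic C57BL/6 strain, with 1 Ctrl-labelled library (Slc6a3-Cre) and 1 labelled OE (Slc6a3-Cre; CAG-S-COUP-TFII). Both genotypes express Cre from the dopamine transporter gene Slc6a3, so the Cre-dependent COUP-TFII allele, at ROSA26 behind the CAG promoter, is switched on only in dopaminergic (DA) neurons of OE mice. The cross given in the study's methods also passes a floxed Tfam allele and a tdTomato reporter to all offspring, although the labels of these samples name neither. The labels give no sex and do not say how many mice went into a library.

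Collagens are proteins of the extracellular matrix whose chains wind around each other in a triple helix. Fibrillar collagens assemble into the ropes that give meninges, vessel walls and other connective tissue their tensile strength. Type IV collagen forms the sheet-like network of basement membranes, which in the brain surround blood vessels and underlie the pia. The remaining types decorate fibrils, form beaded filaments or short networks, or stay anchored in the plasma membrane, and some of these are made by neurons. In the brain, most fibrillar collagen comes from fibroblasts of the meninges and of larger vessels, while endothelial cells and pericytes make much of the type IV collagen.

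The overexpressed gene went against the labels. Nr2f2, which encodes COUP-TFII, had 637 counts in the Ctrl-labelled library and 377 in the OE-labelled library, a log2 fold change of -1.07 (95% counting interval -1.26 to -0.88). All fold changes below divide the OE-labelled library by the Ctrl-labelled one, and none of them is read as an effect of COUP-TFII. The libraries may have been exchanged under their labels, which cannot be settled here, and in that case the sign of every fold change below would turn. The Ctrl-labelled library held 16984336 counts and the OE-labelled library 21326632, so that a gene at an equal scaled level has 1.24 times as many counts in the latter. The labels call the cells dopaminergic neurons, but the oligodendrocyte gene Mog had 3913 and 3852 counts and the DA gene Th 2499 and 9354, so the libraries hold the RNA of whole tissue. In such tissue, fewer cells of a type and less RNA per cell cannot be told apart. The study reported higher COUP-TFII mRNA in DA neurons isolated from OE mice, which counts of whole tissue do not measure. What a difference in tissue content adds to the Nr2f2 value was not tested. With 1 library per group no difference has a replicate check, and the intervals, taken by the exact Clopper-Pearson method from how a gene's counts divide between the libraries, cover counting error only.

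The promoter sequences of 35 of the 44 collagen genes could be matched in RefSeq (GRCm38.p6), in windows of 300 bases from 250 before to 50 after a start site. The other 9 are Col1a1, Col2a1, Col4a3, Col5a2, Col9a3, Col12a1, Col14a1, Col22a1 and Col26a1. The windows of 6 genes are shown, written 5′ to 3′ on the strand of the gene. Col4a1 and Col4a2 are shown because they start 21 bases apart on opposite strands, Col1a2 and Col3a1 because they were lower in the OE-labelled library, and Col11a1 and Col25a1 because they were higher there. Capitals mark the letters of 4 motifs, each searched on both strands. These are the nuclear receptor half-site AGGTCA, the element TATAAA of many regulated genes, the common promoter element CCAAT and the GC box GGGCGG, which Sp family factors bind.
Col4a1, chr8:11312777-11313076, minus strand: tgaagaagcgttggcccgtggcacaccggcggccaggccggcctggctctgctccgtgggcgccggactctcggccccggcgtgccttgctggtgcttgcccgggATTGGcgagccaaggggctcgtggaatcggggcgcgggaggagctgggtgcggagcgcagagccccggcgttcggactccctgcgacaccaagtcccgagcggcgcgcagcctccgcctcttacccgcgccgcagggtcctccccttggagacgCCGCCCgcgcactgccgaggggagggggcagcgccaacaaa
Col4a2, chr8:11312555-11312854, plus strand: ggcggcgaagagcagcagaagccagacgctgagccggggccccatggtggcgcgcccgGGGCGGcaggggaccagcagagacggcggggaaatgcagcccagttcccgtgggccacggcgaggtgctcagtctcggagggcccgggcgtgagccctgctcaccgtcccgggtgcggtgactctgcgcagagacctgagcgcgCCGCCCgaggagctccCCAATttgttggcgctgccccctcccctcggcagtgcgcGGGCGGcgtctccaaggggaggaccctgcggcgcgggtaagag
Col1a2, chr6:4505368-4505667, plus strand: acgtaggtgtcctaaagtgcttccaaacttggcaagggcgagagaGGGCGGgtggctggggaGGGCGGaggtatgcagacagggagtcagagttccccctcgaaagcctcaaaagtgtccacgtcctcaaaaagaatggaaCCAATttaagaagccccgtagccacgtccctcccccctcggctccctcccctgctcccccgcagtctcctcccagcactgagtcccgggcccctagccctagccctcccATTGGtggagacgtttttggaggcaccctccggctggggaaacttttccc
Col3a1, chr1:45311288-45311587, plus strand: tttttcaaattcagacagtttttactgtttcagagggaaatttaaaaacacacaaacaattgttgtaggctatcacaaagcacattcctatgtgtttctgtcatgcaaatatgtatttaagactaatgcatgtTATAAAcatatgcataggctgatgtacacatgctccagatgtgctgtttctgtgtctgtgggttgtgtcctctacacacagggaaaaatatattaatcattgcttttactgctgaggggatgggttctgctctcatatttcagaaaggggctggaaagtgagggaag
Col11a1, chr3:114030290-114030589, plus strand: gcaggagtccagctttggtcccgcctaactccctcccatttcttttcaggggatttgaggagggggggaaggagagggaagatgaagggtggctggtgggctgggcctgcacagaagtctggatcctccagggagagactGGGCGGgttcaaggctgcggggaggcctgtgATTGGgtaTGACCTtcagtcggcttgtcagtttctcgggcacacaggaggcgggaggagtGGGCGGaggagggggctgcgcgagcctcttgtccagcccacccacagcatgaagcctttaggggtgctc
Col25a1, chr3:130180595-130180894, plus strand: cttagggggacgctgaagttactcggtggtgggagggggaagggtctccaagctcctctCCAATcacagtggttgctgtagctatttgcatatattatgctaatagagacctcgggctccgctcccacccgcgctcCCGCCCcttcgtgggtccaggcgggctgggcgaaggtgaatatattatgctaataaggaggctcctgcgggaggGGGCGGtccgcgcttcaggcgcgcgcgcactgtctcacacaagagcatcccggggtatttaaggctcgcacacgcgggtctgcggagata

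The windows differed in base composition. Col4a1 and Col4a2 had a GC content of 74.0% and 73.7%, and Col3a1 one of 37.7%. Over all 38 windows of collagen genes the median was 59.8%, against 52.7% over the 32851 windows of the reference. GC boxes stood in 23 of the 38 windows (60.5%) and in 35.7% of all windows. The AGGTCA half-site, the letters that nuclear receptors such as COUP-TFII recognise in pairs, stood in 8 of the 38 (21.1%) and in 16.3% of all windows. Among the 6 windows shown, that of Col11a1 has it, on the opposite strand. The TATAAA letters were present in 13.2% and 13.6%, and CCAAT in 34.2% and 37.4%. A match is a description of letters and not a binding site.

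Transcript levels of collagens spanned a wide range in both libraries. To compare genes, counts were divided by the length of the longest protein-coding transcript and by the scaled library size, which gives counts per kilobase per 1000000 scaled counts. The highest level on this scale belonged to Col25a1, a transmembrane collagen of neurons, with 15.6 in the Ctrl-labelled library and 19.0 in the OE-labelled library. Next came Col4a2 with 12.1 and 13.0, Col11a1 with 11.2 and 13.2, Col16a1 with 11.5 and 11.9, and Col4a1 with 8.30 and 8.14. The order of Col4a2, Col11a1 and Col16a1 was not the same in both libraries. Col1a1 and Col1a2, the chains of type I collagen and the main collagens of most connective tissues, stood at 1.20 and 0.63 and at 3.34 and 2.19. The most abundant collagen transcripts of these libraries were therefore those of Col25a1, of the pair of ubiquitous type IV chains, of the minor fibrillar chain Col11a1 and of Col16a1, a collagen associated with fibrils.

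**Figure D1:**
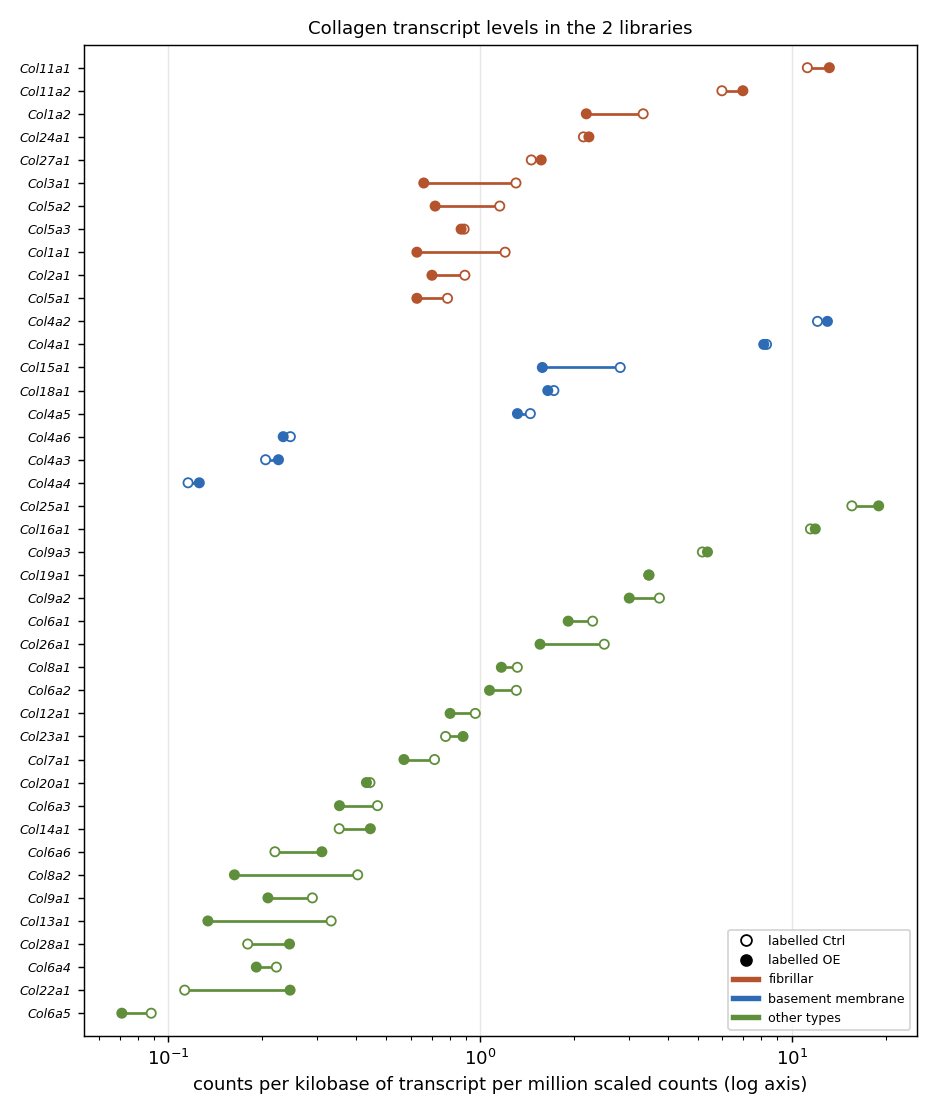
Levels of the 42 collagen genes with at least 10 counts on average, in counts per kilobase of transcript per 1000000 scaled counts on a log axis, by class. Open circles are the Ctrl-labelled library and filled circles the OE-labelled library, 1 library each. Col25a1 is highest, at 15.6 and 19.0, and the filled circles of Col1a1, Col3a1, Col5a2 and Col15a1 lie well to the left of the open ones.

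Collagens as a family leaned toward lower values in the OE-labelled library. Of the 44 genes, 42 passed a minimum of 10 counts on average over the libraries. By the threshold of the study, log2 0.2, 19 of the 42 (45.2%) were lower in the OE-labelled library, where 16.6% of all 15246 genes tested were, and 7 (16.7%) were higher, where 17.9% of all genes were. With a counting interval that also excluded 0, 9 of the 42 (21.4%) were lower against 9.16% of all genes, and 4 (9.52%) were higher against 9.9%. Past log2 1, 2 collagens were lower, with 1.28% of all genes, and 1 was higher, with 1.53%. The 42 fold changes had a median of -0.11 on the log2 scale, and those of all genes tested one of 0.0046.

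The 19 collagens lower by log2 0.2 all had a mean under 300 counts. Genes with few counts pass log2 0.2 more often, so the 34 collagens with a mean under 300 counts were set beside the 6431 genes in that range, a boundary chosen after the values were seen. Of these 34 collagens, 55.9% were lower and 11.8% higher, with 26.8% and 28.4% of the genes in that range. With an interval that excluded 0, 9 collagens were lower against 9.39% of those genes, and 1 was higher against 9.86%. Of the 8 collagens at or above 300 counts on average, 0 were lower and 3 were higher by more than log2 0.2. The share of all genes in that range was not counted, so these numbers are not read as a result. Summed over the family, the scaled counts were nearly the same, 12437 in the Ctrl-labelled library and 12741 in the OE-labelled library, a log2 difference of 0.03. The 8 abundant genes held 8577 and 9574 of these.

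The fibrillar chains were mixed, with more of them lower than higher in the OE-labelled library. All 11 were tested, and their median log2 fold change was -0.32. Of the 11, 6 (54.5%) were lower and 2 (18.2%) higher by more than log2 0.2, beside 16.6% and 17.9% of all genes. The higher share was thus near the background, and 3 chains were within log2 0.2. With an interval that excluded 0, 4 (36.4%) were lower and 2 (18.2%) higher, beside 9.16% and 9.9%. The 4 were the chains of types I and III, which form the bulk fibrils of connective tissue, and Col5a2, a chain of the type V collagen that starts those fibrils. The 2 were the chains of type XI collagen, best known from cartilage.

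Col1a1 had 122 counts in the Ctrl-labelled library and 79 in the OE-labelled library, a log2 fold change of -0.94 (interval -1.37 to -0.52). Col1a2, its partner in the type I helix, had 305 and 249 counts (log2 fold change -0.60, interval -0.85 to -0.36). Col3a1, the chain of type III collagen, had 124 and 78 counts (log2 fold change -0.98, interval -1.41 to -0.56). The scaled levels of the 3 genes in the Ctrl-labelled library were 1.91, 1.52 and 1.97 times those in the OE-labelled library. Col5a2 had 131 and 101 counts (log2 fold change -0.69, interval -1.08 to -0.30). Its partner Col5a1 went in the same direction with 113 and 112 counts, -0.32, but the interval from -0.72 to 0.06 included 0. Col5a3, the third chain of type V, had 93 and 113 counts and stood at -0.03 (interval -0.44 to 0.38). Type V chains ranged from lower to near equal. Col2a1, the main collagen of cartilage, had 78 and 76 counts, with 0 inside its interval from -0.83 to 0.12.

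Both type XI chains were higher in the OE-labelled library, by nearly equal amounts. Col11a1 had 1470 and 2149 counts (log2 fold change 0.23, interval 0.14 to 0.33). Col11a2 had 617 and 895 counts (log2 fold change 0.22, interval 0.07 to 0.37). The ratio of Col11a1 to Col11a2 per length was 1.88 in the Ctrl-labelled library and 1.89 in the OE-labelled library. The intervals of both lay above 0, and those of Col1a1, Col1a2, Col3a1 and Col5a2 below 0. These genes were grouped by that, so the lack of overlap between them is no further result. The remaining fibrillar chains, Col24a1 and Col27a1, differed by less than counting error: Col24a1 had 262 and 339 counts (0.06, interval -0.18 to 0.30) and Col27a1 190 and 254 (0.11, interval -0.17 to 0.38).

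**Figure D2:**
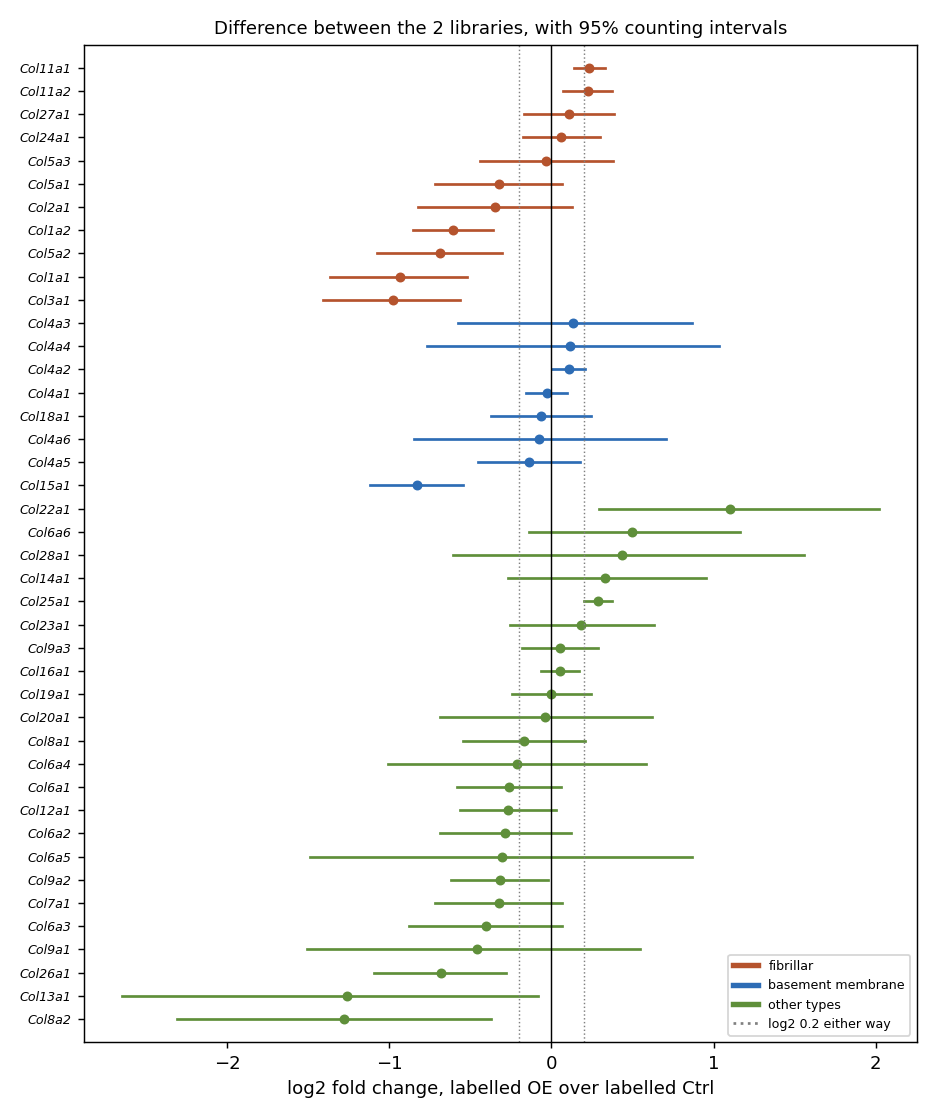
Log2 fold change, OE-labelled over Ctrl-labelled library, of the 42 collagen genes with at least 10 counts on average, by class, with 95% Clopper-Pearson counting intervals as bars and log2 0.2 as dotted lines. Col1a1, Col1a2, Col3a1, Col5a2 and Col15a1 lie left of 0 with their intervals, while the 6 type IV chains lie between -0.14 and 0.14.

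Basement membrane collagens were nearly level between the libraries, with the exception of Col15a1. The 6 type IV chains ranged from -0.14 to 0.14 around a median of 0.04, and 0 of the 6 passed log2 0.2. Col4a1 and Col4a2, whose products form the common type IV helix, had the highest counts. Col4a1 had 938 counts in the Ctrl-labelled library and 1142 in the OE-labelled library (-0.03, interval -0.16 to 0.10). Col4a2 had 1333 and 1782 (0.11, interval 0.0024 to 0.21), a difference just outside counting error. Col4a5 had 162 and 183 counts, and its value of -0.14 was within counting error (interval -0.45 to 0.18). The chains with restricted expression were scarce: Col4a3 had 30 and 41 counts, Col4a4 20 and 27, and Col4a6 28 and 33, and all 3 intervals included 0.

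The multiplexins Col15a1 and Col18a1 sit in the basement membrane zone and release fragments that restrain vessel growth. They differed from each other. Col15a1 had 249 counts in the Ctrl-labelled library and 174 in the OE-labelled library, a log2 fold change of -0.83 (interval -1.12 to -0.55). Col18a1 had 165 and 196 counts and stood at -0.06 (interval -0.37 to 0.24), and the intervals of the pair did not overlap. With both multiplexins the median of the 8 genes was -0.05.

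Chains of type IV collagen are encoded in head-to-head pairs. In mm10 (GRCm38), Col4a1 (chr8:11198423-11312826) and Col4a2 (chr8:11312805-11449287) overlap by 22 bases at their 5′ ends, which lie in the windows printed for them. The ratio of Col4a1 to Col4a2 per length was 0.69 in the Ctrl-labelled library and 0.62 in the OE-labelled library. Col4a3 and Col4a4, 71 bases apart on chromosome 1, had log2 fold changes of 0.14 and 0.12. Col4a5 and Col4a6, whose gene bodies are 1308 bases apart on the X chromosome, had -0.14 and -0.07, although per length Col4a5 was 5.88 and 5.64 times as high as Col4a6. Within each pair the 2 genes had similar fold changes, at depths that leave wide intervals for 3 of the 6.

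Other neighbours on a chromosome were less uniform. Col3a1 (chr1:45311538-45349706) and Col5a2 (chr1:45374321-45503282) lie tail to tail with a gap of 24614 bases, and both were lower in the OE-labelled library. Col6a1 and Col6a2, on the same strand of chromosome 10, had log2 fold changes of -0.26 and -0.28. In the cluster of Col6a4, Col6a5 and Col6a6 on chromosome 9 the values were -0.21, -0.30 and 0.49. Col1a1 and Col1a2 share a helix but lie on different chromosomes, 11 and 6. Their ratio per length was 0.36 in the Ctrl-labelled library and 0.29 in the OE-labelled library.

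Of the 25 other collagens, 23 were tested, with a median log2 fold change of -0.21. By log2 0.2, 12 (52.2%) were lower and 5 (21.7%) higher, beside 16.6% and 17.9% of all genes. With an interval that excluded 0, 4 (17.4%) were lower and 2 (8.70%) higher, beside 9.16% and 9.9%, so the higher side was near the background.

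Type VI collagen, which builds beaded filaments around cells, was lower as a sum. By log2 0.2, 5 of its 6 genes (83.3%) were lower, though each within counting error. Of all genes 16.6% were lower, and of genes with a mean under 300 counts 26.8%. Over its 6 genes the scaled counts summed to 469 in the Ctrl-labelled library and 405 in the OE-labelled library, a log2 difference of -0.21 (interval -0.41 to -0.02). Col6a1 had 161 and 167 counts (-0.26, interval -0.58 to 0.06) and Col6a2 104 and 106 (-0.28, interval -0.69 to 0.12). Col6a3 had 81 and 76 counts, with an interval from -0.88 to 0.06. These 3 genes encode the common type VI helix, and their fold changes of -0.26, -0.28 and -0.40 each remained within counting error. The other 3 were scarce, with 28 and 30 counts for Col6a4, 14 and 14 for Col6a5, and 33 and 58 for Col6a6. Col6a6 went the other way, at 0.49 (interval -0.14 to 1.16).

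The collagens that associate with fibrils (FACITs) were mixed, with a median of -0.0027 over 9 genes. Col16a1, the most abundant of them, had 1021 and 1315 counts (0.05, interval -0.07 to 0.17). Col19a1, known from interneurons and from developing muscle, had 254 and 315 counts and the median value of the group (interval -0.25 to 0.24). Of the type IX chains, which coat the fibrils of cartilage, Col9a2 had 188 and 187 counts and was lower (-0.32, interval -0.62 to -0.02). Col9a3 had 269 and 347 counts and stood at 0.05 (interval -0.18 to 0.29), and the intervals of these partners of a helix overlapped. Col9a1 had 19 and 17 counts. Col12a1 had 190 and 196 counts (-0.27, interval -0.56 to 0.03), which counting error covers.

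Col22a1, a collagen of tissue junctions, was the collagen that most exceeded its Ctrl-labelled level in the OE-labelled library, while the differences of Col8a2 and Col13a1, in the other direction, were larger. It had 17 counts in the Ctrl-labelled library and 46 in the OE-labelled library, a log2 fold change of 1.10 (interval 0.29 to 2.02). The counts are few and the interval is wide. The remaining FACITs, Col14a1 with 39 and 61 counts and Col20a1 with 38 and 46, had intervals that included 0.

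Transmembrane collagens were led by Col25a1, which has roles in the growth of motor axons and binds amyloid peptides. It had 1785 counts in the Ctrl-labelled library and 2703 in the OE-labelled library, a log2 fold change of 0.29 (interval 0.20 to 0.37). Its scaled level was 21.9% higher in the OE-labelled library. Col23a1 had 75 and 106 counts, and its difference was within counting error (0.18, interval -0.25 to 0.63). Col13a1, which serves the neuromuscular junction, had 18 and 9 counts, at -1.26 with a wide interval from -2.65 to -0.08. Col17a1, a collagen of epithelial hemidesmosomes, had 4 and 11 counts and was below the minimum.

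Among the network-forming and remaining chains, Col8a2 and Col26a1 were lower in the OE-labelled library. Col8a2, a short chain of the membranes under corneal and vascular endothelium, had 30 and 15 counts (log2 fold change -1.28, interval -2.31 to -0.37). Its partner Col8a1 had 115 and 127 counts and stood at -0.17 (interval -0.55 to 0.21). Col26a1 had 119 and 92 counts (log2 fold change -0.68, interval -1.09 to -0.28). Col7a1, the chain of the fibrils that anchor epithelia, had 113 and 112 counts (-0.32, interval -0.72 to 0.06). Col28a1 had 13 and 22 counts, and Col10a1, a marker of growth plate cartilage, 0 and 1, too few for a fold change.

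The enzymes that make collagen had a median near 0, with members on both sides. Of 31 genes listed for synthesis, folding and crosslinking, 29 were tested, with a median of 0.00074. By log2 0.2, 8 (27.6%) were lower and 5 (17.2%) higher, where 16.6% and 17.9% of all genes were. With an interval that excluded 0, 5 (17.2%) were lower and 3 (10.3%) higher, beside 9.16% and 9.9%. Outside the naming rule, the largest difference of the list was that of Pcolce, an enhancer of propeptide removal, with 77 and 45 counts (-1.08, interval -1.65 to -0.54), and P4ha3, a prolyl hydroxylase chain, was also lower at -0.37. The 5 higher genes were Tll1, Colgalt2, Adamts2, Loxl2 and Crtap, of which Loxl2 and Crtap had intervals that included 0. Serpinh1, the chaperone of the collagen helix, had 383 and 418 counts (-0.19, interval -0.39 to 0.02), and P4hb, a subunit of prolyl hydroxylase, 2732 and 3071 (-0.14, interval -0.22 to -0.07). Lox, which crosslinks fibrils, was scarce, with 12 and 15 counts. Colgalt2, which adds galactose to collagen, was higher, with 214 and 483 counts (0.86, interval 0.63 to 1.10). Tll1 was also higher, with 151 and 352 counts (0.91, interval 0.63 to 1.19), and its relative Bmp1, which removes the C-propeptide of fibrillar chains, was lower at -0.38 (interval -0.54 to -0.22). Adamts3, an enzyme that removes N-propeptides, was lower at -0.50 (interval -0.74 to -0.26).

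Receptors and proteases of collagen differed little. Of 9 tested receptor genes, 2 (22.2%) were lower and 0 higher by log2 0.2, near the 16.6% of all genes that were lower, and the median was -0.11. The lower ones, named after their values were seen, were the integrin subunit Itga1 at -0.70 and the endocytic receptor Mrc2 at -0.29, and the interval of Mrc2 included 0. The integrin subunit Itgb1 had 1725 and 1981 counts (-0.11, interval -0.21 to -0.02) and the receptor kinase Ddr1 1548 and 1790 (-0.10, interval -0.20 to -0.0046). For degradation, 9 of 15 genes were tested, and 1 (11.1%) was lower and 2 (22.2%) higher, beside 16.6% and 17.9% of all genes. The higher ones were the gelatinases Mmp2 and Mmp9, both with intervals that included 0. The lower one was Mmp14, a membrane-bound protease that cleaves fibrillar collagen, with 204 and 197 counts (-0.36, interval -0.65 to -0.07). Timp3, an inhibitor held in the matrix, stood at -0.09 (interval -0.15 to -0.02).

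Many other proteins of the matrix were lower in the OE-labelled library. Of 16 basement membrane proteins outside the collagens, 10 (62.5%) were lower and 3 (18.8%) higher by log2 0.2, beside 16.6% and 17.9% of all genes, with a median of -0.27. The laminin chains Lamc3 and Lama1 stood at -0.66 (interval -1.01 to -0.31) and -0.55 (interval -0.93 to -0.17), and perlecan, encoded by Hspg2, at -0.41 (interval -0.70 to -0.12). Lama3 was higher, with 64 and 139 counts (0.80, interval 0.37 to 1.26), as were Lama5 at 0.40 and, within counting error, Lamb3 at 0.27. Sparc, which binds collagen, had the most counts of the list, 20585 and 27712, and stood at 0.12 (interval 0.09 to 0.14). Of 21 interstitial matrix proteins, 10 (47.6%) were lower and 2 (9.52%) higher. Fmod, a proteoglycan of collagen fibrils, had 154 and 67 counts (log2 fold change -1.51, interval -1.95 to -1.09). Eln, which encodes elastin, stood at -0.62 (interval -0.96 to -0.28) and Bgn at -0.59 (interval -0.83 to -0.35). Lum was lower with 50 and 39 counts (-0.66, interval -1.31 to -0.04), whereas Dcn, with 329 and 360, was within counting error (-0.18, interval -0.40 to 0.04). The higher ones were Thbs1 at 0.54 (interval 0.18 to 0.92) and Omd, with only 8 and 12 counts.

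Markers of fibroblasts and of vessel wall cells were also lower in the OE-labelled library. Of 19 tested markers of leptomeningeal and perivascular fibroblasts, 13 (68.4%) were lower and 0 higher by log2 0.2, beside 16.6% and 17.9% of all genes, with a median of -0.43. Igf2, a growth factor of meningeal cells, stood at -0.45 and Slc13a3 at -0.56. Their 22 listed genes summed to 4499 scaled counts in the Ctrl-labelled library and 3721 in the OE-labelled library, and none was at 0. Dcn, Lum and Ogn are also in the interstitial matrix list. Among 14 mural cell markers 10 (71.4%) were lower and 0 higher, and the sum went from 5827 to 4534, with none at 0. Acta2, the actin of smooth muscle, stood at -0.97 (interval -1.19 to -0.75). The part of these cells in the lower values of Col1a1, Col1a2, Col3a1, Col5a2 and Col15a1 was not tested.

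Markers of other cells moved by different amounts. By log2 0.2, 16.6% of all genes were lower and 17.9% higher, the background for each list here. Of 16 endothelial markers 7 (43.8%) were lower and 1, Erg, higher, and the sum went from 11643 to 11175. Of 7 tested choroid plexus markers, 2 (28.6%) were lower, Ttr with 426 and 67 counts and Kl with 60 and 39, and 1 was higher, Clic6 at 0.22. All 16 markers of DA neurons were higher by log2 0.2, with a sum of 29666 and 70433. The thalamus list had 14 of 17 lower and 1 higher, Amotl1 at 0.22 (interval 0.14 to 0.31). Its sum was 26889 and 17661, with Gbx2 at 0 in the OE-labelled library. Oligodendrocyte markers were lower in 8 of 12 cases (66.7%), with a median of -0.29. For microglia markers this was 5 of 12 (41.7%), with a median of -0.13, and for astrocyte markers 1 of 12 (8.33%), with a median of -0.07. In the oligodendrocyte, microglia and astrocyte lists 0 were higher by log2 0.2. The part of any of these cells in the values of Col25a1, Col11a1 and Col11a2 was not tested.

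**Figure D3:**
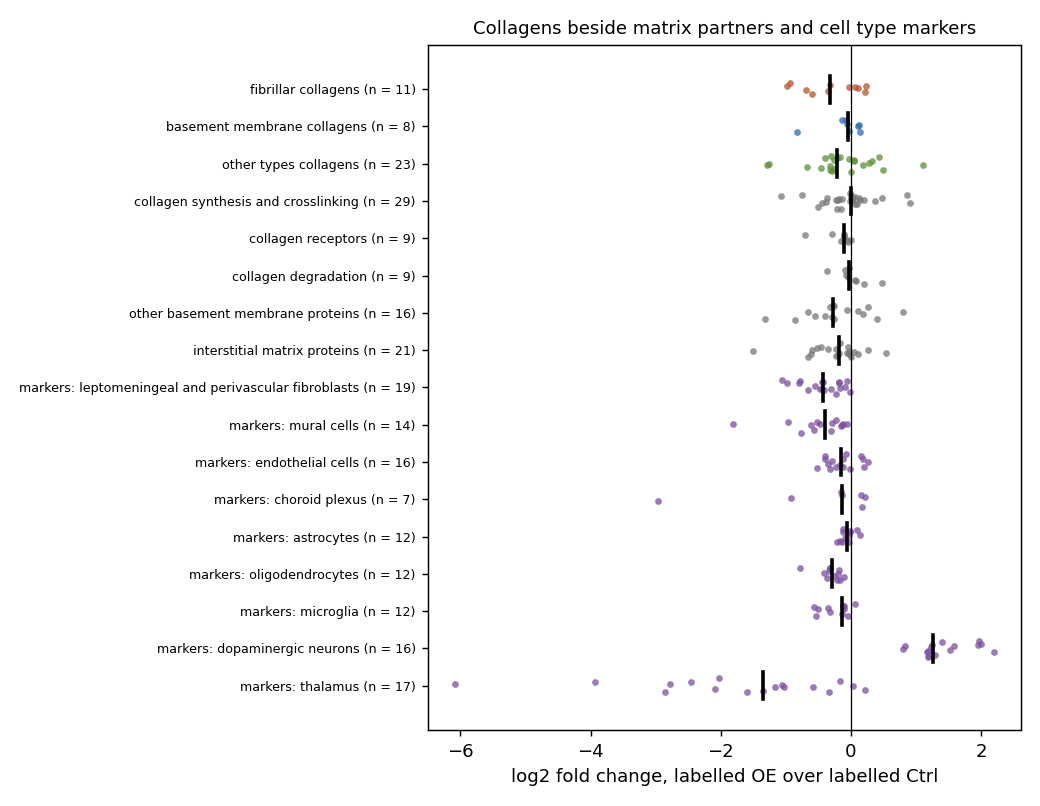
Log2 fold change, OE-labelled over Ctrl-labelled library, of tested genes in the collagen classes, lists of matrix partners and cell type markers. Each point is 1 gene, and black bars are medians, which are -0.32 for fibrillar collagens, -0.05 for basement membrane collagens, -0.43 for fibroblast markers and 1.26 for DA neuron markers.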

How the data were processed

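Ventral midbrain RNA was measured in 2 libraries, 1 per group. A sequencing company prepared stranded polyadenylated libraries, sequenced them from both ends over 50 bp and processed the reads in-house. What the authors deposited are expected counts from RSEM for 31252 gene rows, without scaling. Per the submitters' processing notes the build was mm10. The aligner, RSEM version and annotation are not given in the sources used here. All counts of the 44 collagen genes are whole numbers.

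Libraries were assigned by the number in their label. Counts were scaled by TMM (edgeR 4.0.16, R 4.3.3). Log2 fold changes used a pseudocount of 0.5 scaled counts, for genes with at least 10 counts on average. Intervals are 95% Clopper-Pearson intervals on rounded counts (scipy 1.17.1). With 1 library per group, no test and no p-value was computed. Transcript lengths and gene positions are from GENCODE M21 (GRCm38), found for all 44 genes, and promoters from RefSeq (GRCm38.p6). Alternatives were other scalings (total counts, the upper quartile, DESeq2 1.42.0 size factors), a pseudocount of 5, other count minimums and thresholds, type IV alone, and a background of scarcer genes. Poisson counts were simulated for this comparison, with 200 of 15257 tested genes changed by log2 1. Of those, 89.5% were recovered, and 95.1% of intervals of unchanged genes held 0. The simulation held counting error alone, so it checks the intervals as computed and not the variation between mice or dissections.

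The members and lists were chosen with earlier results of these data known. Values are given for collagens with a mean of at least 100 counts or an interval that excludes 0. The other collagens are named with their counts. From each partner list, up to 4 genes of at least 100 counts with the largest differences among those whose interval excluded 0 were named (for marker lists only some of these), plus Serpinh1, P4hb, Lox, Sparc, Lama1, Hspg2, Dcn and Lum. Other genes named from these lists, where a count was 5 or fewer or a gene stood out, were chosen after their values were seen.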

Additional observations from a re-analysis of the deposited data

How the results depend on the processing

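No paired analysis was possible because there is only 1 library in a group, and for the same reason no library could be left out. For 43 single collagens, 0 of 172 fold changes under another scaling or a pseudocount of 5 left the counting interval of the reported value. Another scaling shifts all genes by nearly the same small amount, less than the intervals are wide, so this check could hardly fail. Intervals that excluded 0 stayed at 5 above and 9 below, except that scaling by total counts left 4 above, without Col4a2. Nr2f2 stayed between -1.08 and -1.06. Medians moved from -0.11 to between -0.15 and -0.07 for all collagens, from -0.32 to between -0.34 and -0.18 for fibrillar chains, and from -0.21 to between -0.26 and -0.17 for other types. For basement membrane collagens the median of -0.05 became 0.04 with type IV alone. The counts of 7 higher and 19 lower collagens of 42 became 3 and 12 of 26 with a mean of at least 100 counts. Of all genes with that mean, 13.0% were higher and 11.7% lower. Past log2 1 they became 1 and 2 of 42, beside 1.53% and 1.28% of all genes. Where the interval had to exclude 0 they became 4 and 9 of 42, beside 9.9% and 9.16%. Fewer genes can pass these settings by construction. Restricted to genes with a mean under 300 counts, a choice made after seeing the data, 4 of 34 were higher and 19 lower. The genes in that range had shares of 28.4% and 26.8%. At this depth, collagens with a mean under 300 counts have intervals too wide to show differences near log2 0.2. The same holds for Col24a1 and Col9a3, which lie just above that mean.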
